A study of Homo sapiens with 6 samples.

Results

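The 10 genes described here control epithelial-mesenchymal transition (EMT) and the splicing that goes with it. They are SNAI1, SNAI2, ZEB1, ZEB2, TWIST1, TWIST2 and PRRX1, transcription factors that drive the mesenchymal state, and ESRP1, ESRP2 and GRHL2, regulators of the epithelial state. They were taken by name from the 65198 gene rows of the deposited table, after Ensembl identifiers had been matched to GENCODE 29 symbols, and all 10 were found. RNA was sequenced from MDA-MB-231, a human breast cancer line labelled basal-like, in shHOTAIR cells and shCtrl cells. The shHOTAIR cells expressed, under tetracycline control, a hairpin RNA that targets HOTAIR, a non-coding transcript of the HOXC locus. The shCtrl cells carried an inducible hairpin of scrambled sequence. Both kinds received 1 µg/ml doxycycline for 96 h, so the controls carried the drug as well, and each gave 3 independent repeats. The labels name 1 derivative of each kind and do not say whether it was a clone or a pool. The p-values therefore measure the spread among repeats of a derivative, not among derivatives.

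SNAIL-family proteins (SNAI1 and SNAI2), ZEB proteins and TWIST proteins bind E-box sequences and repress epithelial genes such as CDH1, which encodes E-cadherin. PRRX1 is a homeobox factor of mesenchyme that can also drive EMT. ZEB1 and ZEB2 are held down by the miR-200 microRNAs and in turn repress the genes of those microRNAs. ESRP1 and ESRP2 bind RNA and impose the epithelial pattern of alternative exons, and ZEB1 can repress ESRP1. GRHL2 is an epithelial transcription factor that opposes ZEB1. Among breast cancer lines MDA-MB-231 is known for a mesenchymal appearance, with high vimentin and little E-cadherin.

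Expression was measured in FPKM, fragments scaled by transcript length and library depth. A library held 27416 to 29392 genes above 0, and its depth in fragments is unknown. From the spacing of low values, 1 fragment was worth 0.595 to 0.717 times as many FPKM in shHOTAIR libraries as in shCtrl 1. In shCtrl libraries it was worth 0.812 to 1 times as many. The scaling behind the values is not given, so this does not rank the libraries by depth. HOTAIR itself read 0, 0 and 0.0113 FPKM in shHOTAIR cells and 0, 0.0128 and 0.0132 FPKM in shCtrl cells, so whether the hairpin lowered its target could not be checked (exact two-sided permutation p = 0.4, where 0.1 is the smallest p of 3 against 3). Summed markers of the epithelial line (KRT8, KRT18, KRT19, EPCAM and CDH1) lay at 436 to 548 FPKM in shHOTAIR cells and 314 to 357 FPKM in shCtrl cells, with 2 called higher and 1 lower. Summed mesenchymal markers (VIM, FN1, CD44, SPARC and CDH2) lay at 875 to 1019 FPKM in shHOTAIR cells and 1578 to 1650 FPKM in shCtrl cells, with VIM and FN1 lower. CD44 averaged 479.6 FPKM in shHOTAIR cells and 475 FPKM in shCtrl cells, and SPARC 0.368 FPKM in shHOTAIR cells and 0.131 FPKM in shCtrl cells. CDH1 and EPCAM, which define epithelial cells, were at 0.114 FPKM or less in all 6 libraries. Of the receptor genes checked, PGR was listed at 0, while ESR1 averaged 0.092 FPKM in shHOTAIR cells and 0.0672 FPKM in shCtrl cells. ERBB2 was well expressed, at means of 19.5 FPKM in shHOTAIR cells and 21.4 FPKM in shCtrl cells. Of 4 leukocyte markers none reached a mean of 1 FPKM, while fibroblast markers summed to 4.35 to 5.58 FPKM in shHOTAIR cells and 2.53 to 3.20 FPKM in shCtrl cells. Endothelial markers summed to 2.23 to 3.00 FPKM in shHOTAIR cells and 1.57 to 1.97 FPKM in shCtrl cells. The part of these marker differences in the results was not tested.

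The members fell into 3 tiers of abundance. ZEB1, SNAI2 and ZEB2 exceeded a mean of 1 FPKM over the 6 libraries and entered the test of 15934 genes with limma on log2(FPKM + 1). SNAI1, PRRX1, ESRP1, ESRP2 and GRHL2 lay above 0 but under that mean, and were read from a second limma fit, which took every gene with a value above 0 somewhere, 36141 in all. TWIST1 and TWIST2 were listed at 0 in all 6 libraries. A log2 change here is on the log2(FPKM + 1) scale, which understates the change of low genes. Adjusted p-values are limma's with Benjamini-Hochberg adjustment over all genes in the fit, with a threshold of 0.05.

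Of the 3 tested members 1 was higher in shHOTAIR cells, SNAI2, and 1 was lower, ZEB1. Over all 15934 tested genes 11.5% were called higher and 12.4% lower, 23.8% in all. In the fit of 36141 genes 8 members were present, with SNAI2 higher and ESRP2 lower. There 4.55% of all genes were called higher and 4.34% lower, 8.89% in all. The values of the groups did not overlap for 4 members, SNAI1, SNAI2, ZEB1 and ESRP2. This held for 26.6% of the 36141 genes and for 43% of the 15934 tested genes. With so few members these shares are a description only.

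**Figure D1:**
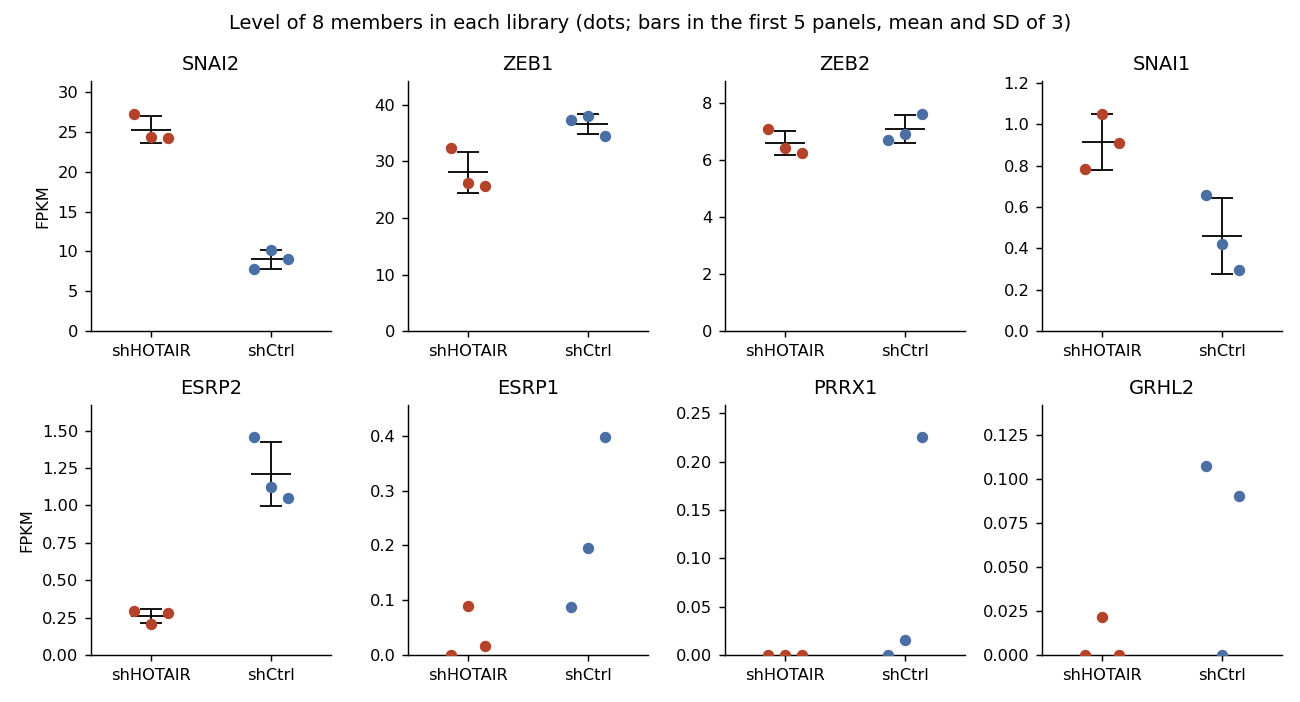
FPKM of the members in each library, with shHOTAIR libraries left of shCtrl libraries in every panel, dots for libraries and bars for mean ± SD where drawn. SNAI2 lies between 24.2 and 27.3 FPKM in shHOTAIR cells and between 7.83 and 10.2 FPKM in shCtrl cells, while ESRP2 lies between 0.203 and 0.297 FPKM in shHOTAIR cells and between 1.05 and 1.45 FPKM in shCtrl cells.

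SNAI2, which encodes the repressor SLUG, showed the largest positive log2 change of the members. SNAI2 (ENSG00000019549, chromosome 8, 48917604 to 48921740 on GRCh38, minus strand) measured 27.3, 24.3 and 24.2 FPKM in shHOTAIR 1, 2 and 3, against 7.83, 10.2 and 9.08 FPKM in shCtrl 1, 2 and 3. All 3 shHOTAIR libraries lay far above the highest shCtrl library. The means were 25.3 ± 1.73 FPKM in shHOTAIR cells and 9.03 ± 1.18 FPKM in shCtrl cells (SD, n = 3 each), a ratio of 2.80. The log2 change was 1.39 (SE 0.104, limma adjusted p = 0.00116). In bulk RNA a different number of cells expressing a gene and a different amount of RNA per cell cannot be told apart. The call held under all 17 alternatives run, with log2 changes between 1.31 and 1.49 and adjusted p between 0.000786 and 0.0251.

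The tested genes nearest to SNAI2 did not move with it as a group. Its 50 nearest tested protein-coding genes had a median log2 change of -0.05, with 2 higher and 7 lower. They reached from 10.7 Mb on the lower side to 9.70 Mb on the upper side. The nearest on either side were UBE2V2, an ubiquitin-conjugating enzyme variant, and PCMTD1. They changed by 0.08 (adjusted p = 0.499) and -0.26 (adjusted p = 0.0712) on the log2 scale. Their middles lie 0.883 Mb below and 2.94 Mb above that of SNAI2, so a shift of shorter reach would not be seen. With each gene centred on its 50 neighbours, SNAI2 differed by 1.43 on the log2 scale (limma adjusted p = 0.00122). After that centring SNAI2 was the member still called higher and no tested member was called lower, where 15% of all tested genes were called.

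ZEB1 was the most abundant member in shCtrl cells and was lower in shHOTAIR cells, with an adjusted p close to the threshold. ZEB1 (ENSG00000148516, chromosome 10, 31318495 to 31529814 on GRCh38, plus strand) measured 32.3, 26.2 and 25.7 FPKM in shHOTAIR 1, 2 and 3, against 37.4, 37.9 and 34.5 FPKM in shCtrl 1, 2 and 3. Every shHOTAIR value was below every shCtrl value, with shHOTAIR 1 the closest to the shCtrl libraries. The means were 28.1 ± 3.67 FPKM in shHOTAIR cells and 36.6 ± 1.82 FPKM in shCtrl cells (SD, n = 3 each). The log2 change was -0.38 (SE 0.101, limma adjusted p = 0.0461). The call was lost when any library other than shHOTAIR 1 was left out, with adjusted p of 0.138 without shHOTAIR 2, 0.122 without shHOTAIR 3, 0.133 without shCtrl 1, 0.133 without shCtrl 2 and 0.0908 without shCtrl 3. Without shHOTAIR 1 it was kept, at a log2 change of -0.48 (adjusted p = 0.013).

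The genes around ZEB1 were lower as well. Of its 50 nearest tested protein-coding genes, which reached from 11.4 Mb on the lower side to 12.1 Mb on the upper side, 38 were called lower and 0 higher, and 47 had a log2 change below 0. Their median log2 change was -0.62, larger in size than that of ZEB1. ZNF438, the nearest on the lower side and a zinc finger gene, averaged 8.03 FPKM in shHOTAIR cells and 19.3 FPKM in shCtrl cells (log2 change -1.17, adjusted p = 0.000381). ARHGAP12, the nearest on the upper side and a GTPase-activating protein, changed by -0.31 on the log2 scale (adjusted p = 0.0559). Centred on these neighbours, ZEB1 stood 0.22 above them on the log2 scale, with a 95% interval from -0.05 to 0.49 (limma adjusted p = 0.232). The share of the regional shift in the ZEB1 value was not tested.

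**Figure D2:**
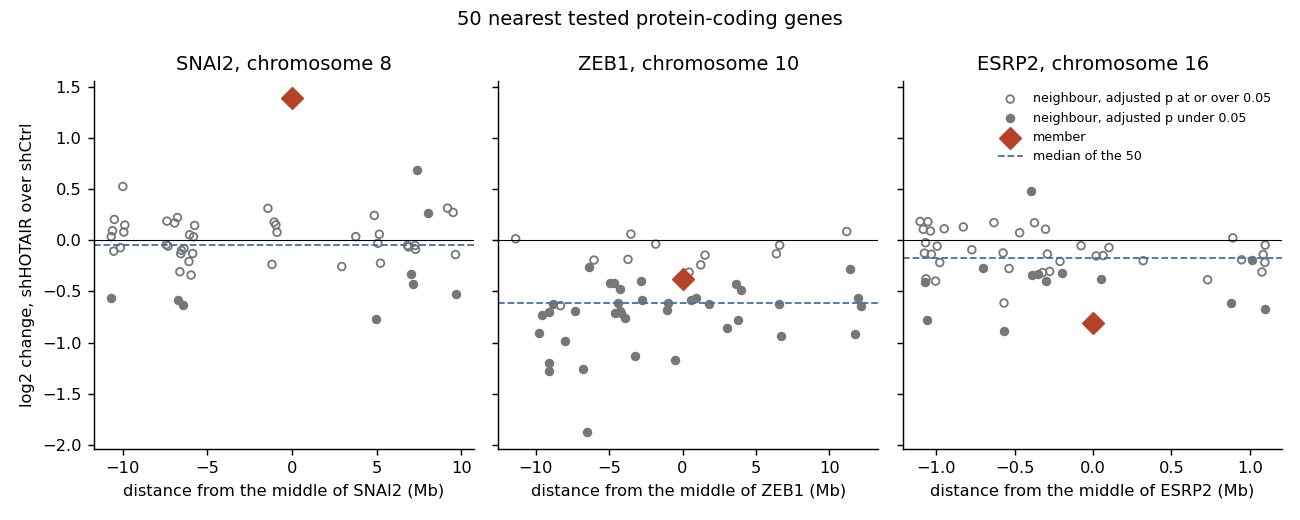
Log2 change (shHOTAIR over shCtrl) of the 50 nearest tested protein-coding genes against their distance in Mb, around SNAI2, ZEB1 and ESRP2. Around ZEB1, 47 of the 50 genes lie below 0 with a median of -0.62, while the medians around SNAI2 and ESRP2 are -0.05 and -0.17.

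ZEB1-AS1, the antisense gene that starts beside ZEB1 and overlaps it by 1953 bases, measured 5.54, 6.38 and 9.81 FPKM in shHOTAIR cells and 11.6, 9.41 and 9.81 FPKM in shCtrl cells. These groups overlapped, and the log2 difference of -0.48 did not pass the test (adjusted p = 0.149). The sources used here give no strand setting for the counting, so fragments from the overlapping stretch cannot be told apart between ZEB1 and ZEB1-AS1.

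ZEB2, the paralog of ZEB1, did not pass the test. ZEB2 (ENSG00000169554, chromosome 2, 144364364 to 144524583 on GRCh38, minus strand) measured 7.08, 6.44 and 6.25 FPKM in shHOTAIR 1, 2 and 3, against 6.70, 6.91 and 7.62 FPKM in shCtrl 1, 2 and 3. The groups overlapped. The log2 difference was -0.09 with a 95% interval from -0.29 to 0.11 (limma adjusted p = 0.448). Its antisense gene ZEB2-AS1 was listed at 0 in all shHOTAIR libraries and read 0, 0.0826 and 0 FPKM in shCtrl cells.

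The miR-200 microRNAs, which hold ZEB1 and ZEB2 down, share a pair of seeds. They are shown here from RefSeq because the 3′ untranslated regions of both genes carry matches to these seeds. The sequence of miR-205 is added, whose seed has a match in that of ZEB1 and none in that of ZEB2. Bases 2 to 8, the seed, are in capitals.
hsa-miR-200a-3p: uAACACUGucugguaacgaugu
hsa-miR-141-3p: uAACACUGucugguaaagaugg
hsa-miR-200b-3p: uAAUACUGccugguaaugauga
hsa-miR-200c-3p: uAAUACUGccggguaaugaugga
hsa-miR-429: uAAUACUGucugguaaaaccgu
hsa-miR-205-5p: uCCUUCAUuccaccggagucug

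The seed of miR-200a and miR-141 differs from that of miR-200b, miR-200c and miR-429, and miR-205 has a seed of its own. The letters pairing with bases 2 to 8 of the seeds are CAGTGTT for the first set, CAGTATT for the second set and ATGAAGG for miR-205. The ZEB1 3′ untranslated region of 2549 bases in GENCODE 29 held CAGTATT 6 times, CAGTGTT 3 times and ATGAAGG 1 time. That of ZEB2, 5370 bases long, held CAGTATT 5 times and CAGTGTT 4 times, with ATGAAGG 0 times. Within the first 1500 bases ZEB1 and ZEB2 held 5 CAGTATT matches each. Over 7702 genes searched for that length, 16.5% held CAGTATT, 19.2% CAGTGTT and 11.5% ATGAAGG. The first match of each kind is printed from GRCh38 in the sense of the transcript, with the match in capitals.
ZEB1, CAGTATT, chr10:31527619-31527641, plus strand: ttgttttatcttatCAGTATTat
ZEB1, CAGTGTT, chr10:31528032-31528054, plus strand: aaaatcatcagaatCAGTGTTtg
ZEB1, ATGAAGG, chr10:31528068-31528090, plus strand: atatgtggtaacatATGAAGGat
ZEB2, CAGTATT, chr2:144389051-144389073, minus strand: gcactaccatacatCAGTATTtt
ZEB2, CAGTGTT, chr2:144389235-144389257, minus strand: gcaaaaattttgtaCAGTGTTaa

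These libraries were poly(A)-selected and do not measure mature microRNAs. The genes that give rise to them were at or near 0. Of 8 such genes, 7 had a row, 5 of them were listed at 0 in all 6 libraries and none entered the test. MIR200CHG, the host transcript of miR-200c and miR-141, was listed at 0 in all libraries except shCtrl 3, at 0.199 FPKM. MIR205HG, the host of miR-205, read 0, 0.07 and 0.16 FPKM in shHOTAIR cells and was listed at 0 in all shCtrl libraries. Both matches and levels are given as a description, no match was read as a site in use, and no 0 as a silent locus.

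SNAI1, which encodes the founding SNAIL repressor, was low in both groups. SNAI1 (ENSG00000124216, chromosome 20, 49982999 to 49988886 on GRCh38, plus strand) measured 0.782, 1.05 and 0.912 FPKM in shHOTAIR 1, 2 and 3, against 0.660, 0.421 and 0.297 FPKM in shCtrl 1, 2 and 3. The groups did not overlap, and the ratio of the means was 1.99. The test was not passed (log2 difference 0.40, SE 0.129, limma adjusted p = 0.150 in the fit of 36141 genes). Its means, 0.915 ± 0.135 FPKM in shHOTAIR cells and 0.459 ± 0.185 FPKM in shCtrl cells (SD, n = 3 each), were a small fraction of those of SNAI2.

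The TWIST factors were listed at 0 and PRRX1 lay at the floor. TWIST1 (chromosome 7) and TWIST2 (chromosome 2), basic helix-loop-helix factors, were listed at 0 in every library of both groups. An exact 0 in such a table can be a failed estimate. Of 143 ribosomal, proteasome and similar genes checked, PSMB11 and RPL10L, known from thymus and testis, were the 2 at 0 throughout. That check covers other genes and cannot show whether the 0 of TWIST1 or TWIST2 was a failed estimate. PRRX1 (chromosome 1) was listed at 0 in shHOTAIR 1, 2 and 3 and read 0, 0.0155 and 0.225 FPKM in shCtrl 1, 2 and 3. On the reading that the smallest step between values is 1 fragment, these were 0 fragments in shHOTAIR cells and 0, 1 and 14 in shCtrl cells. Thus shCtrl 3 held nearly all of them, and the difference did not pass the test (adjusted p = 0.576). PRRX2, its paralog, was listed at 0 in all 6 libraries.

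ESRP2 was lower in shHOTAIR cells. ESRP2 (ENSG00000103067, chromosome 16, 68229111 to 68238102 on GRCh38, minus strand) measured 0.297, 0.203 and 0.280 FPKM in shHOTAIR 1, 2 and 3, against 1.45, 1.12 and 1.05 FPKM in shCtrl 1, 2 and 3. The groups were far apart, with every shCtrl library above 1 FPKM and every shHOTAIR library well below it. The means were 0.260 ± 0.0499 FPKM in shHOTAIR cells and 1.21 ± 0.216 FPKM in shCtrl cells (SD, n = 3 each), so the shCtrl mean was 4.65 times the shHOTAIR mean. The log2 change was -0.81 (SE 0.107, limma adjusted p = 0.0134 in the fit of 36141 genes), and -2.18 with a pseudocount of 0.01 (adjusted p = 0.0104). Leaving out shHOTAIR 2 or shHOTAIR 3 ended the call, at log2 changes of -0.77 (adjusted p = 0.0589) and -0.82 (adjusted p = 0.0537).

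The genes around ESRP2 were shifted down less than ESRP2 itself. Of its 50 nearest tested protein-coding genes 38 had a log2 change below 0, 1 was called higher and 12 lower, and the median log2 change was -0.17. Centred on them, ESRP2 differed by -0.63 on the log2 scale (adjusted p = 0.0202). The ESRP2 gene overlaps NFATC3 on the opposite strand by 149 bases, and NFATC3, a calcium-regulated transcription factor, averaged 19.4 FPKM in shHOTAIR cells and 20.2 FPKM in shCtrl cells (adjusted p = 0.744). Because the strand setting is not given, fragments in that overlap could come from either gene. On its own strand ESRP2 overlaps AC020978.4 by 823 bases and AC020978.5 by 35 bases. AC020978.5 averaged 11.8 FPKM in shHOTAIR cells and 12.9 FPKM in shCtrl cells, and AC020978.4 averaged 0.0421 and 0.0890 FPKM. A strand setting would not separate these from ESRP2, and their share in its value was not tested.

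ESRP1 and GRHL2 were near the floor of detection. ESRP1 (chromosome 8, 94641074 to 94707466, plus strand) read 0, 0.0900 and 0.0156 FPKM in shHOTAIR 1, 2 and 3, against 0.0867, 0.196 and 0.398 FPKM in shCtrl 1, 2 and 3. Read as steps, these were 0, 7 and 1 fragments in shHOTAIR cells and 4, 11 and 22 in shCtrl cells, 8 against 37 in all. The groups overlapped, and the difference did not pass the test (adjusted p = 0.256). GRHL2 (chromosome 8, 101492432 to 101669726, plus strand) read 0, 0.0213 and 0 FPKM in shHOTAIR cells and 0.108, 0 and 0.0902 FPKM in shCtrl cells. Read as steps, this amounted to 1 in shHOTAIR cells and 6 in shCtrl cells (adjusted p = 0.361, and 0.0413 without shCtrl 2). In shCtrl 1, 3 steps were worth 0.108 FPKM for GRHL2 and 0.0648 FPKM for ESRP1. The longest transcript is 5239 bases for GRHL2 and 3806 bases for ESRP1, so a GRHL2 step may be more than 1 fragment.

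**Figure D3:**
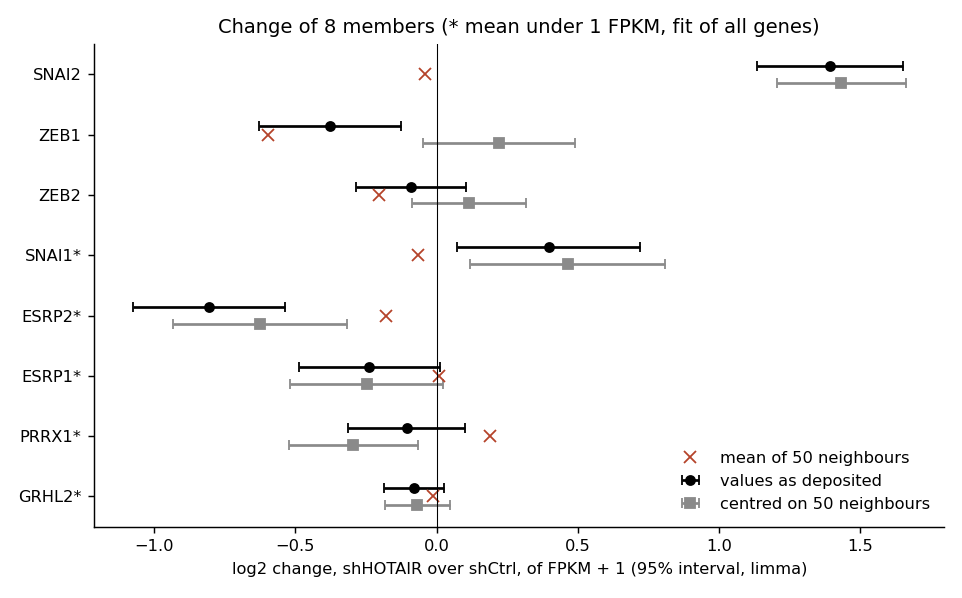
Log2 change (shHOTAIR over shCtrl, log2(FPKM + 1) scale) of the 8 members above 0, with 95% intervals, as deposited in black and centred on 50 neighbours in grey, and crosses for the mean of the neighbours. SNAI2 lies at 1.39 and 1.43 in these readings, ZEB1 at -0.38 and 0.22, and ESRP2 at -0.81 and -0.63, while asterisks mark members read from the fit of all genes.

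By mean, ZEB1, SNAI2 and ZEB2 came first in that order in both derivatives. SNAI1 and ESRP2 changed places, as did GRHL2 and PRRX1 near the floor. In shHOTAIR cells ZEB1 (25.7 to 32.3 FPKM) and SNAI2 (24.2 to 27.3 FPKM) overlapped, and were followed by ZEB2, SNAI1 and ESRP2, each apart from the next. In shCtrl cells ZEB1 stood first at 36.6 FPKM, SNAI2 next at 9.03 FPKM and ZEB2 after it at 7.08 FPKM, with no overlap between them. There ESRP2, at 1.21 FPKM, stood above SNAI1, at 0.459 FPKM, and SNAI1 overlapped ESRP1. FPKM is scaled by length, so levels may be set against each other between genes.

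The ratio of SNAI2 to ZEB1 was 0.844, 0.929 and 0.943 in shHOTAIR 1, 2 and 3, against 0.210, 0.269 and 0.263 in shCtrl 1, 2 and 3. The groups stood apart (exact two-sided permutation p = 0.1, the smallest that 3 against 3 allows). SNAI2 made up 40.4% to 42.4% of the summed FPKM of the 7 mesenchymal factors in shHOTAIR cells and 14.9% to 18.4% in shCtrl cells. ZEB1 made up 45.0% to 47.9% in shHOTAIR cells and 66.7% to 71.1% in shCtrl cells. The sum itself was 67.4, 58.0 and 57.1 FPKM in shHOTAIR 1, 2 and 3, and 52.5, 55.5 and 51.7 FPKM in shCtrl 1, 2 and 3. ESRP1, ESRP2 and GRHL2 together summed to 0.297, 0.315 and 0.296 FPKM in shHOTAIR cells and 1.65, 1.32 and 1.54 FPKM in shCtrl cells.

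Among 19 other transcription factors linked to EMT, 11 were tested, 3 were higher and 1 was lower in shHOTAIR cells. The median log2 change was 0.05, against -0.03 over all tested genes. Counts of this and later lists stand beside 11.5% higher and 12.4% lower among all 15934 tested genes, and 15% called after centring. For the fit of 36141 genes the shares were 4.55% higher and 4.34% lower. FOXQ1, a forkhead factor, averaged 9.57 ± 0.65 FPKM in shHOTAIR cells and 4.71 ± 0.0842 FPKM in shCtrl cells (log2 change 0.89, limma adjusted p = 0.00135). RUNX2, the runt factor of bone, was higher by a log2 change of 0.44 (adjusted p = 0.0238). TCF12, an E-protein partner of TWIST, was lower by a log2 change of -0.37 (adjusted p = 0.0474). FOXQ1 kept its call with each library left out. RUNX2 lost its call when any library other than shCtrl 2 was removed (adjusted p up to 0.0745), and TCF12 without any but shCtrl 3 (up to 0.139). SNAI3, under the filter, read 0.0607, 0.068 and 0.0655 FPKM in shHOTAIR cells and 0.183, 0.130 and 0.192 FPKM in shCtrl cells (adjusted p = 0.0497 in the fit of 36141 genes, and up to 0.115 without any library but shCtrl 2).

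Of 16 epithelial transcription factors 7 were tested, 2 higher and 3 lower (23.8% of all tested genes were called). The median log2 change was 0.15. After centring on neighbours 1 was higher and 4 lower, with a median of -0.37, and in the fit of 36141 genes 0 were higher and 1, EHF, was lower. EHF, an ETS factor of epithelia, measured 2.59, 4.28 and 3.56 FPKM in shHOTAIR 1, 2 and 3, against 20.7, 17.4 and 17.1 FPKM in shCtrl 1, 2 and 3. The groups were far apart (log2 change -2.13, limma adjusted p = 0.00122). KLF4, a Krüppel-like factor, was lower by a log2 change of -0.38 (adjusted p = 0.0249). The luminal factor GATA3, on chromosome 10, was higher by a log2 change of 0.52 (adjusted p = 0.0366), and by 1.16 after centring (adjusted p = 0.00525). Its call was lost in the fit of 36141 genes (adjusted p = 0.067) and with quantile normalization (adjusted p = 0.0503). A replicate block ended it as well (adjusted p = 0.129). TFAP2C, an AP-2 factor, was higher by 0.31 (adjusted p = 0.031), and by 0.22 after centring, where it missed the threshold (adjusted p = 0.0847). FOXA1, a luminal forkhead factor that completes the count, was lower by a log2 change of -0.64 (adjusted p = 0.0374). EHF and GATA3 kept their calls with each library left out. KLF4 lost its call without shHOTAIR 1, shHOTAIR 2, shCtrl 1 or shCtrl 2 (adjusted p up to 0.0881), TFAP2C without any library but shHOTAIR 1 (up to 0.103) and FOXA1 without any of the 6 (up to 0.0849). GRHL1 read 0.186, 0.279 and 0.171 FPKM in shHOTAIR cells and 0.431, 0.429 and 0.353 FPKM in shCtrl cells (adjusted p = 0.0912), and OVOL2 read 0.128, 0.184 and 0.148 FPKM in shHOTAIR cells and 0, 0.0838 and 0 FPKM in shCtrl cells (adjusted p = 0.0767). OVOL1 was listed at 0 throughout.

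Epithelial genes known as targets of repression by these factors moved in both directions. Of 30 listed, 15 were tested, 6 were higher and 3 lower (23.8% of all tested genes were called). The median log2 change was 0.16. SPINT2, a membrane inhibitor of serine proteases, averaged 102 ± 10.0 FPKM in shHOTAIR cells and 57.4 ± 2.35 FPKM in shCtrl cells (log2 change 0.82, limma adjusted p = 0.00256). Its relative SPINT1 measured 1.92, 2.95 and 2.72 FPKM in shHOTAIR 1, 2 and 3, and 0.560, 0.363 and 0.366 FPKM in shCtrl 1, 2 and 3 (log2 change 1.29, adjusted p = 0.00632). The keratin KRT18 averaged 232 ± 22.4 FPKM in shHOTAIR cells and 150 ± 9.27 FPKM in shCtrl cells (log2 change 0.62, adjusted p = 0.00706).

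The genes that went the other way, and those that complete the counts, were named after their values were seen. AP1M2, a clathrin adaptor subunit of epithelia, averaged 67.5 ± 11.4 FPKM in shHOTAIR cells and 123 ± 17.7 FPKM in shCtrl cells (log2 change -0.85, adjusted p = 0.0153). The desmosomal plakophilin PKP2 and the keratin KRT19 were lower by log2 changes of -0.36 (adjusted p = 0.0106) and -0.59 (adjusted p = 0.0207). Under the filter, the tight-junction genes MARVELD2 and CLDN7 were lower in the fit of 36141 genes. MARVELD2 measured 0.245, 0.301 and 0.234 FPKM in shHOTAIR cells and 1.28, 1.58 and 1.40 FPKM in shCtrl cells, and the shCtrl mean was 5.46 times the shHOTAIR mean (adjusted p = 0.00687). CLDN7 measured 0.321, 0.287 and 0.293 FPKM in shHOTAIR cells and 1.67, 1.08 and 1.35 FPKM in shCtrl cells (adjusted p = 0.0171). The junction genes CLDN4 and JUP, which complete the higher count, were at log2 changes of 0.37 (adjusted p = 0.0222) and 0.75 (adjusted p = 0.0354). CLDN4 lost its call when any library other than shHOTAIR 1 was removed (up to 0.0789), and JUP without shHOTAIR 2, shHOTAIR 3, shCtrl 1 or shCtrl 3 (up to 0.0673). Both also lost their calls in the fit of 36141 genes, and JUP with quantile normalization. In the fit of 36141 genes the list had 4 genes higher and 5 lower of 30. MARVELD2 and PKP2 kept their calls with each library left out, but lost them with a replicate block (adjusted p = 0.0800 and 0.0517). AP1M2 lost its call without shHOTAIR 2, shCtrl 1 or shCtrl 3 (adjusted p up to 0.0592), so that 1 listed gene was then lower in the fit of tested genes. KRT19 lost its call without shHOTAIR 1 or any of those (up to 0.0796), and CLDN7 without any shHOTAIR library or shCtrl 3 (up to 0.0713).

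CDH1, the best known target, read 0.103, 0.114 and 0.0391 FPKM in shHOTAIR cells and 0.0225, 0.037 and 0.105 FPKM in shCtrl cells. EPCAM read 0.0843, 0.0957 and 0.091 FPKM in shHOTAIR cells and 0.0862, 0.0517 and 0.0723 FPKM in shCtrl cells. Both were near the floor with groups that overlapped.

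The ZEB and SNAIL proteins are known to bind the E-box CAGGTG, so promoters were searched for it on both strands (CAGGTG or CACCTG) in the 250 bases before the RefSeq start on GRCh38.p14. Of 35116 promoters 17.5% held at least 1 match and 2.53% at least 2. Of the members 4 were found in the promoter table, ZEB1, ZEB2, TWIST2 and PRRX1, and ZEB1 held 1 match. Of the listed epithelial genes 16 were found and 8 held a match, among them AP1M2 with 3 and CRB3, a polarity gene, with 5. The ZEB1 window and the AP1M2 window are printed because ZEB1 is the member with a match and AP1M2 the called gene of the list with the most, with the matches in capitals.
ZEB1, chr10:31318167-31318416, plus strand: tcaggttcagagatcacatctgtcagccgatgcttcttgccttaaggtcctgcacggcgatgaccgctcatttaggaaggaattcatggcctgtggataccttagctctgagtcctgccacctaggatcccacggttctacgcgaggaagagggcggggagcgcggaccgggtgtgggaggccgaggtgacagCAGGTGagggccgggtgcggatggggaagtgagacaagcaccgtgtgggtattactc
AP1M2, chr19:10587313-10587562, minus strand: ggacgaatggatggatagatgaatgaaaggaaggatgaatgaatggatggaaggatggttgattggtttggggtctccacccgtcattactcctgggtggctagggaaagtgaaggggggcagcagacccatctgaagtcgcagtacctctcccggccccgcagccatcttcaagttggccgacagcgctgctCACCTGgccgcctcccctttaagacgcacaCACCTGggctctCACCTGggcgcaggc
The match in the ZEB1 window begins at position -57 from the start, and those in the AP1M2 window at -57, -27 and -15. A match is a description of the letters and not a site in use.

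Mesenchymal genes also divided. Of 20 listed, 14 were tested, 6 were higher and 4 lower (23.8% of all tested genes were called). The median log2 change was 0.14. CDH11, a mesenchymal cadherin, measured 16.3, 15.3 and 19.1 FPKM in shHOTAIR 1, 2 and 3, against 3.29, 3.59 and 3.26 FPKM in shCtrl 1, 2 and 3 (log2 change 2.03, limma adjusted p = 0.000418). VIM, the intermediate filament vimentin, averaged 393 ± 27.3 FPKM in shHOTAIR cells and 948 ± 37.1 FPKM in shCtrl cells (log2 change -1.27, adjusted p = 0.000616). VIM lies on chromosome 10 as ZEB1 does, and centred on its neighbours it differed by -0.53 on the log2 scale (adjusted p = 0.00724). FN1, the matrix protein fibronectin, averaged 91.4 ± 8.20 FPKM in shHOTAIR cells and 199 ± 23.2 FPKM in shCtrl cells (log2 change -1.11, adjusted p = 0.00226). LOX, the enzyme that cross-links collagen, averaged 6.64 ± 1.02 FPKM in shHOTAIR cells and 19.1 ± 1.44 FPKM in shCtrl cells (log2 change -1.40, adjusted p = 0.00143). ACTA2, smooth muscle actin, also on chromosome 10, completes the lower count at a log2 change of -0.77 (adjusted p = 0.0255). It lost its call without shHOTAIR 2, shHOTAIR 3 or shCtrl 1 (up to 0.0539) and after centring, at -0.33 (adjusted p = 0.228). The other higher genes were COL5A1 and COL1A1, collagen chains, at log2 changes of 1.43 (adjusted p = 0.00902) and 0.96 (adjusted p = 0.00572), TAGLN, an actin-binding protein, at 0.48 (adjusted p = 0.0023), the receptor kinase AXL at 0.48 (adjusted p = 0.00231) and the matrix protein TNC at 0.21 (adjusted p = 0.0322). All of these but TNC kept their calls with each library left out. TNC lost its call without shHOTAIR 2, shHOTAIR 3, shCtrl 1 or shCtrl 2 (up to 0.0752) and after centring (adjusted p = 0.169). COL5A1 lost its call with a replicate block (adjusted p = 0.0577). CDH2, N-cadherin, read 0.138, 0.0647 and 0.0686 FPKM in shHOTAIR cells and 0.0889, 0.201 and 0.166 FPKM in shCtrl cells, with overlapping groups.

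**Figure D4:**
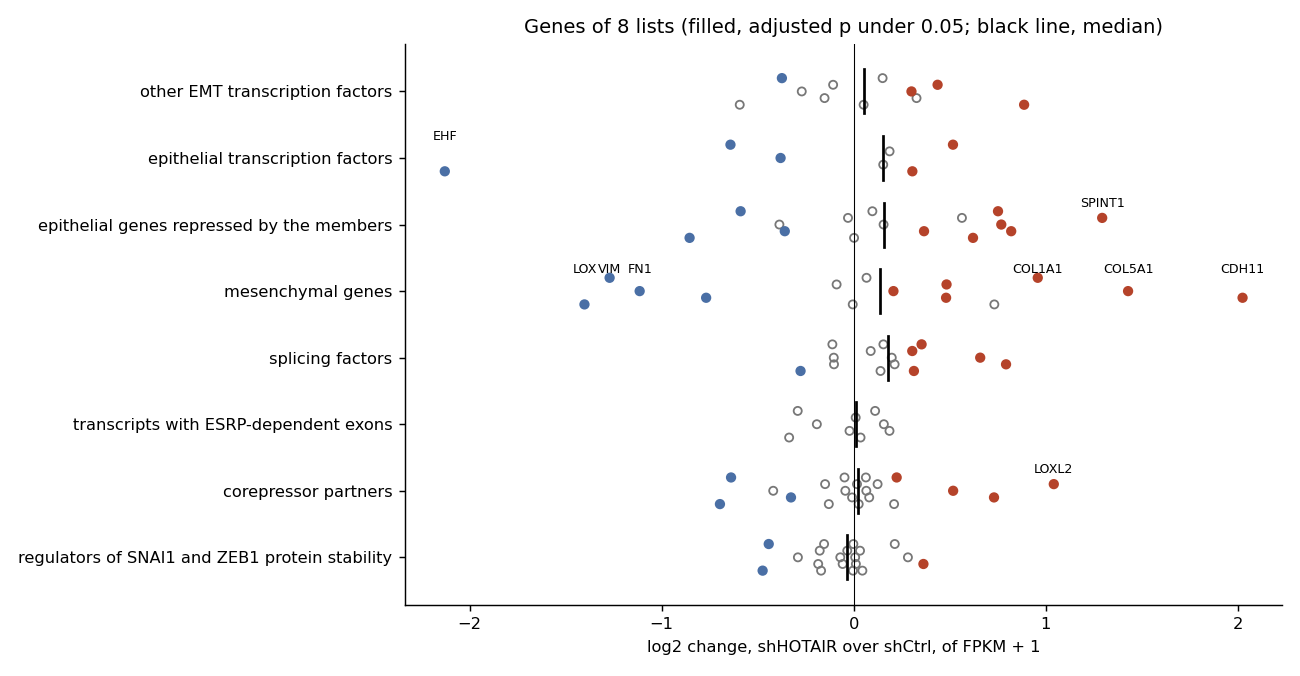
Log2 change (shHOTAIR over shCtrl) of the tested genes in 8 lists related to the members, 1 point per gene, filled where the limma adjusted p was under 0.05. In the list of epithelial genes 6 points are called above 0 and 3 below, in the mesenchymal list 6 and 4, and in the list of transcripts with ESRP-dependent exons none.

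Transcripts whose exons ESRP proteins control did not pass the test at the level of the whole gene. Of 10 listed, 9 were tested and 0 were called by limma (23.8% over all tested genes), with 4 at an unadjusted p under 0.05. Their median log2 change was 0.01. The smallest adjusted p belonged to EXOC7, an exocyst subunit, at a log2 difference of -0.34 (adjusted p = 0.0709). MAP3K7, NUMB and ENAH had log2 differences of 0.19, -0.19 and -0.29, with adjusted p of 0.0736, 0.0763 and 0.0804. Each of these passed under 1 alternative, EXOC7 without shHOTAIR 3 (adjusted p = 0.0165), ENAH without shHOTAIR 1 (0.0192), NUMB after centring (0.025) and MAP3K7 with equal summed protein-coding FPKM (0.0422). A gene-level FPKM does not show which exons were included, so splicing itself was not measured.

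Of 15 other splicing factors 14 were tested, 5 were higher, 1 was lower and 8 did not pass the test. Over all tested genes 23.8% were called. The median log2 change of the list was 0.18. After centring on neighbours 1 was higher and 1 lower, and the median was 0.03. The muscleblind gene MBNL2 averaged 32.0 FPKM in shHOTAIR cells and 18.1 FPKM in shCtrl cells (log2 change 0.79, adjusted p = 0.00299), but 0.03 after centring (adjusted p = 0.845). KHDRBS1, which encodes SAM68, was higher by a log2 change of 0.35 (adjusted p = 0.00972), and -0.08 after centring (adjusted p = 0.456). TRA2B, a regulator of exon inclusion, was higher by 0.31 (adjusted p = 0.0103), and 0.02 after centring (adjusted p = 0.827). HNRNPM, which is known to oppose ESRP1 on some exons, averaged 234 FPKM in shHOTAIR cells and 189 FPKM in shCtrl cells (log2 change 0.31, adjusted p = 0.0102), and 0.47 after centring (adjusted p = 0.00264). The paralogs of MBNL2 completed the counts. MBNL3 was higher by 0.66 (adjusted p = 0.0207, and up to 0.0814 without a shHOTAIR library) and stood at -0.000383 after centring (adjusted p = 0.999). MBNL1 was lower by -0.28 (adjusted p = 0.0228, and up to 0.0687 without any library but shHOTAIR 1).

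All 20 listed corepressor partners of SNAIL and ZEB proteins were tested, with 4 higher and 3 lower (23.8% of all tested genes were called). The median log2 change was 0.02. LOXL2, an oxidase that binds SNAI1, averaged 57.4 FPKM in shHOTAIR cells and 27.3 FPKM in shCtrl cells (log2 change 1.04, limma adjusted p = 0.000705). AJUBA, a LIM protein that bridges SNAIL to repressors, averaged 41.1 FPKM in shHOTAIR cells and 24.3 FPKM in shCtrl cells (log2 change 0.73, adjusted p = 0.00189). CTBP2 and BMI1, a ZEB corepressor and a Polycomb protein, lie on chromosome 10 and were lower by log2 changes of -0.64 (adjusted p = 0.00188) and -0.70 (adjusted p = 0.00735). Centred on their neighbours these were -0.16 (adjusted p = 0.184) and 0.01 (adjusted p = 0.968). After centring, LOXL2 and AJUBA were the genes of the list still called, both higher. The deacetylase HDAC1, at a log2 change of 0.52 (adjusted p = 0.0083), the demethylase KDM1A, at 0.22 (adjusted p = 0.0471), and CTBP1, at -0.33 (adjusted p = 0.0216), completed the counts. After centring HDAC1 was at 0.0854 (adjusted p = 0.419), KDM1A at -0.158 (adjusted p = 0.113) and CTBP1 at 0.0967 (adjusted p = 0.244). KDM1A lost its call without any library but shCtrl 1 (up to 0.116), and CTBP1 without any shHOTAIR library or shCtrl 2 (up to 0.0665).

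Of 20 regulators of SNAI1 and ZEB1 protein stability 19 were tested, 1 higher and 2 lower, with a median log2 change of -0.03. These few calls stand beside 23.8% called over all tested genes and are a description only. CTDSP1, a small phosphatase that acts on SNAI1, was higher by a log2 change of 0.36 (adjusted p = 0.0291). BTRC and FBXL5, F-box proteins of ubiquitin ligases that target SNAI1, were lower by log2 changes of -0.44 (adjusted p = 0.0296) and -0.47 (adjusted p = 0.0394). CTDSP1 and FBXL5 lost their calls without any library but shHOTAIR 1 (adjusted p up to 0.0968 and 0.120), and BTRC without shHOTAIR 1, shHOTAIR 2, shCtrl 1 or shCtrl 3 (up to 0.0996). Centring on neighbours ended all 3 calls, at log2 values of 0.14 for CTDSP1 (adjusted p = 0.301), 0.14 for BTRC, which lies on chromosome 10 (adjusted p = 0.392), and -0.0067 for FBXL5 (adjusted p = 0.977). LATS2, a kinase that phosphorylates SNAI1, had a log2 difference of -0.18 (adjusted p = 0.0585).

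The tested protein-coding genes with the pattern most like a called member were found by the smallest root mean square difference of centred log2 values over the 6 libraries. For SNAI2 these were EFNB2, which encodes ephrin-B2, at 0.076, the protease PRSS23 at 0.098 and MARC1 at 0.099. After centring EFNB2, on chromosome 13, went from a log2 change of 1.32 to 0.58, while PRSS23 and MARC1 stood at 1.48 and 1.44. For ZEB1 the nearest were C9orf72, ITSN2 and COX15, at 0.020, 0.027 and 0.031. C9orf72 and ITSN2 did not pass the test (limma adjusted p = 0.0638 and 0.0794). COX15 passed (adjusted p = 0.0344), but lies on chromosome 10 and was at 0.09 after centring (adjusted p = 0.653). ESRP2 was called in the second fit, and its nearest were the corepressor NRIP1 at 0.035, DOCK4 at 0.054 and MYC at 0.054. All of these are descriptions over 6 libraries in 2 groups.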

How the data were processed

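FPKM values for 6 libraries, 3 shHOTAIR and 3 shCtrl, were used as the authors deposited them, with libraries matched to groups by the hairpin in their labels. Libraries of NEBNext-selected poly(A) RNA were prepared with the PrepX chemistry on an automated system, per the labels' protocols. The submitters' processing notes name GRCh38, DESeq and TopHat2 2.0.13 without a role or order. The sources used here give neither the program, annotation and strand setting behind the FPKM values nor the depth.

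Of 65198 rows, 56807 had an Ensembl identifier present in GENCODE 29 and 8391 had none. Values were analysed as log2(FPKM + 1). Genes averaging 1 FPKM or more were tested with limma 3.58.1 in R 4.3.3 (intensity trend, no replicate block, Benjamini-Hochberg, threshold 0.05). Members under that mean were read from a fit of all genes above 0. Centring subtracted, in each library, the mean of the 50 nearest tested protein-coding genes. Low values of PRRX1, ESRP1 and GRHL2 were whole multiples of 1 step within 2%. The fit was tested on simulated data. Sequence tables were from RefSeq (GRCh38.p14). Tables and figures were made with matplotlib 3.10.9, scipy 1.17.1, pandas 2.3.3 and numpy 2.4.6 in Python 3.11.15.

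The members and the lists were chosen with earlier results of these data known, and the lists come from general knowledge. The rule for named genes took the members, the 4 genes of each list with the smallest p, a set of EMT genes in any case, the 3 genes most like each called member and its nearest neighbours. Genes outside it (PKP2, AP1M2, KRT19, MARVELD2, CLDN7, FOXA1, CLDN4, JUP, ACTA2, COL1A1, COL5A1, TAGLN, AXL, TNC, MBNL1, MBNL3, HDAC1, KDM1A, CTBP1, CRB3, MIR205HG and those given for ESRP2) were chosen after their values were seen. A few of the genes it covers go unmentioned in the text. Alternatives were pseudocounts of 0.1 and 0.01, no filter, a minimum of 5 FPKM, 3 rescalings, 2 limma settings, a replicate block, each library left out and regional centring.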

Additional observations from a re-analysis of the deposited data

How the results depend on the processing

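SNAI2 kept its direction and call under all 17 alternatives, and 1 member was higher in each. ZEB1 passed the threshold as reported but not with no filter (-0.38, adjusted p = 0.0909), rescaling by the median of ratios (-0.35, 0.0697), rescaling to equal summed protein-coding FPKM (-0.31, 0.110), quantile normalization (-0.35, 0.0612) or limma without trend (-0.38, 0.0586). Under regional centring it turned to 0.22. Leaving out a library moved it between -0.48 and -0.32. So 0 tested members were lower under those rescalings, without trend, and under regional centring, and 0 to 1 with a library left out, against 1 as reported. ESRP2 ranged from -0.86 to -0.73 and GRHL2 from -0.126 to -0.0522 with a library left out. Over all genes 1243 to 1554 were higher and 1224 to 1605 lower with a library left out (1829 and 1968 as reported), and 1170 were lower under regional centring. That centring also turned ZEB2 (0.12), KDM1A (-0.158), CTBP1 (0.0967), MBNL3 (-0.000383), KHDRBS1 (-0.0775), BMI1 (0.00875), BTRC (0.14), CDH2 (0.11), ZEB1-AS1 (0.11), ZEB2-AS1 (0.17), GRHL3 (-0.29), OVOL2 (-0.12) and HOTAIR (0.0601), and GRHL3 ranged from -0.0364 to 0.085 with a library left out. For genes near 0 FPKM a centred value is mostly the subtracted shift of their neighbours. Before centring HOTAIR was at -0.00703 with neighbours at -0.0671, and ZEB2-AS1 at -0.0382 with neighbours at -0.207. GRHL3 was at 0.0426 with neighbours at 0.330. The turned sign of such genes is therefore not read as a reversal. The cause of the other moves was not tested.

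Same-numbered libraries did not deviate together (correlations -0.14, -0.07 and -0.05). No shHOTAIR library correlated best with the shCtrl library of its own number. With so few repeats, whose deviations sum to 0 within a group, this cannot settle whether the numbers pair the samples. With a replicate block 825 genes were higher and 915 lower, and 0 tested members were lower. ZEB1 (-0.38, adjusted p = 0.0813) and ESRP2 (-0.81, 0.0952) missed the threshold with it. SNAI2, EHF, SPINT2, KRT18, CDH11, VIM, FN1, LOX, LOXL2 and AJUBA kept their calls. Calls were lost for GATA3 (adjusted p = 0.129), MARVELD2 (0.0800), HNRNPM (0.0582), COL5A1 (0.0577), PKP2 (0.0517) and SPINT1 (0.0510). KHDRBS1, TRA2B and many genes that also lost their calls with a library left out lost them too. Depth is unknown, so ESRP1, GRHL2, PRRX1 and HOTAIR, read from a few steps, allow no firm statement. No filter and the minimum of 5 FPKM gave no separate value for members under 1 FPKM.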
